A study of Saccharomyces cerevisiae with 16 samples.

Results

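CMK was given to yeast cells whose casein kinase Hrr25 was unmodified, and the effect was read across all features with a mean of at least 20 normalised counts (reads divided by a library's size factor, its scale) over the 4 libraries of the experiment, which are 6451 of the 6760 features listed. The features nearest to this minimum were YML099W-A, at 19.98 and left out, and YBL065W, at 20.0004 and kept. The series holds 16 RNA sequencing samples in 8 groups. The pair of groups used here were both labelled WT, and both carried his3Δ, leu2Δ and ura3Δ, a chromosomal HRR25 replaced by kanMX4, and unmodified HRR25 on the URA3 plasmid pRS316. So the kinase came from a plasmid in treated cells and in their controls alike. Cultures in YPD, kept at a temperature of 30°C, were treated at a density (OD600) of 0.3 with DMSO (replicates 3 and 4) or CMK (replicates 1 and 2) for 1 hour. The labels do not expand the name CMK and give no dose. Total RNA was freed of ribosomal RNA before single-end sequencing of 100 bp reads.

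Hrr25 is the budding yeast homologue of mammalian casein kinase 1 delta and epsilon, with known roles in ribosome assembly, vesicle traffic, autophagy and meiosis. Small nucleolar RNAs (snoRNAs) guide the chemical modification of ribosomal RNA in the nucleolus. Box C/D snoRNAs pair with a site that is then methylated on the ribose, and box H/ACA snoRNAs select uridines that become pseudouridine. In yeast most are transcribed from their own promoters, some as several in a row, and others are cut out of introns, after which their ends are trimmed and bound by core proteins.

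The deposited comparison of CMK with DMSO cells singled out small guide RNAs and no other feature. In the authors' deposited table, condition B was higher at 9 features with an adjusted p under 0.05, which is 0.14% of the 6451 tested, and every one was a box C/D snoRNA. No feature passed as lower (0%). Without adjustment, 56 features (0.868%) were higher and 12 (0.186%) lower at a deposited p under 0.05. The headers do not say which condition is DMSO, so every fold below is condition B over condition A. The sequences of the called snoRNAs follow, since they are the features on which the result of the deposited test rests. They were read from the R64 RefSeq genome, 5′ to 3′ on the transcribed strand. Capitals mark the box C motif TGATGA where it starts and ends within the first 15 bases, and the box D motif CTGA within the last 15. snR38, a box C/D snoRNA of like length that did not pass and was lower in B, is shown for comparison.
snR61, chrXII:794486-794575, minus strand: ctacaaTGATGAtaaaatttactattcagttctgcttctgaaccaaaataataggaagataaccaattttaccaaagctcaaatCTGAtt
snR50, chrXV:259489-259578, plus strand: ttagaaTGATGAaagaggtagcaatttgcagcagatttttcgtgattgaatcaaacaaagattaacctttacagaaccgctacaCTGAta
snR66, chrXIV:586090-586175, plus strand: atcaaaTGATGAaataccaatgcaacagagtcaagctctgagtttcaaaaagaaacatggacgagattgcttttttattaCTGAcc
snR67, chrV:61352-61433, plus strand: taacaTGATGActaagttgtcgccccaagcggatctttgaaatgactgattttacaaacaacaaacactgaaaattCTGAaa
snR24, chrXIII:499984-500072, minus strand: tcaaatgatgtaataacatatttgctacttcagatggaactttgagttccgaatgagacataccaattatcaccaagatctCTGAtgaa
snR47, chrIV:541602-541700, minus strand: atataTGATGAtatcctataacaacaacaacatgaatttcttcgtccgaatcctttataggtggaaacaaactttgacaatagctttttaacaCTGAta
snR74, chrXIII:298138-298225, plus strand: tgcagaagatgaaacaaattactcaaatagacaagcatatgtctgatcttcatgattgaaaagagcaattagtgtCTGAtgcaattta
snR79, chrXII:348427-348510, minus strand: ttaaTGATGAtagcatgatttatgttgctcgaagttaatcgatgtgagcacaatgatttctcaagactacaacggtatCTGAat
snR45, chrXVI:821732-821903, plus strand: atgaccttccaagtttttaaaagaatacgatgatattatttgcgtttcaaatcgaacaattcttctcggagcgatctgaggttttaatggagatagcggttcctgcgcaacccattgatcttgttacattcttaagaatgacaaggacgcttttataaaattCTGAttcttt
snR38, chrXI:283185-283279, plus strand: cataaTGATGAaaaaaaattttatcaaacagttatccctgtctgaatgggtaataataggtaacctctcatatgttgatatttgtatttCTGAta

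Among the 9 called genes 6 held the box C motif in that window and 9 the box D motif. Over the 47 listed box C/D genes the counts were 36 (76.6%) and 45 (95.7%), so the called genes did not stand out by these letters. Of the 29 box H/ACA genes, 1 (3.45%) held the box C letters, 1 held the box D letters and none held both. On the opposite strand none of the genes of either class held both motifs.

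The libraries of a condition were not alike, and this touches every result below. Whole reads recovered from the deposited means gave 14635620 and 15118440 counted reads for condition A and 9568820 and 34122412 for condition B. They are called A1, A2, B1 and B2 here, the library with the smaller size factor first; these names carry no replicate number. B1 and B2 were over 2-fold apart at 1179 features (18.3%), against 495 (7.67%) for A1 and A2. Both B libraries lay above both A libraries at 758 features (11.8%) and below both at 858 (13.3%), which is the background for the counts of separated features below. B2 equalled the condition B library of the CMK table of hrr25is cells at 6760 of 6760 features, while no other pair of libraries from the 2 tables was equal at more than 1.61%. One library therefore stands in both tables, and which strain it came from cannot be told.

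**Figure D1:**
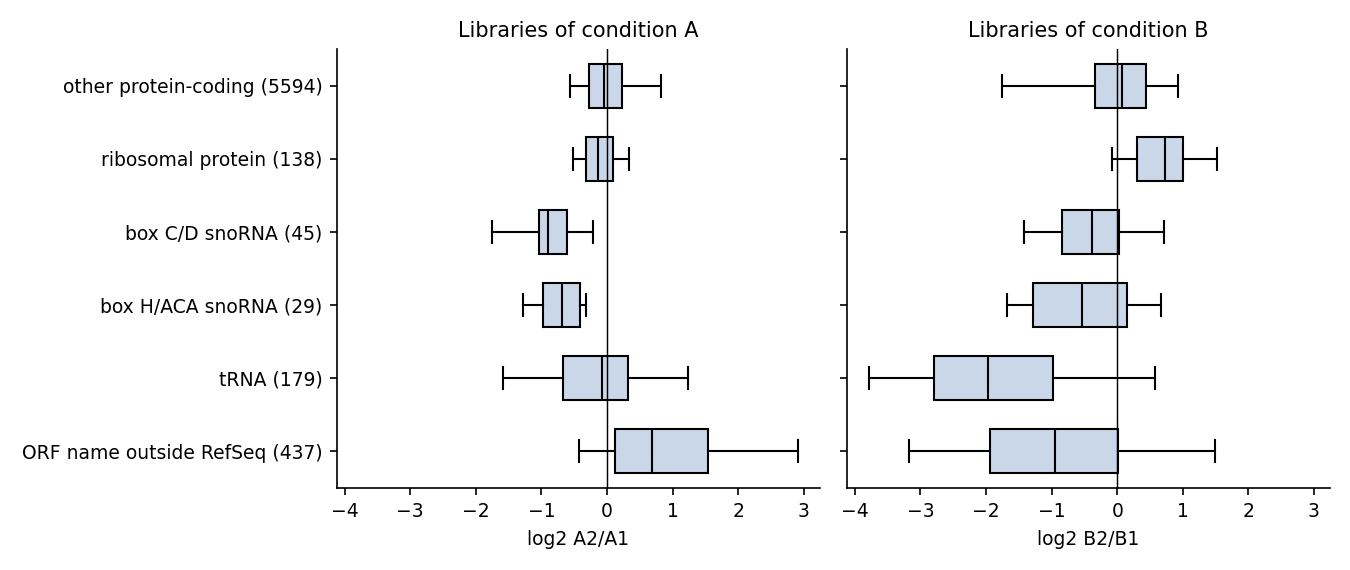
Log2 ratio between the 2 libraries of a condition (A2 over A1, and B2 over B1) for the features of each class, with boxes from the lower to the upper quartile, a line at the median and whiskers over the central 90 percent. In tRNA genes B2 lay below B1, with a median of −1.98, and in both snoRNA classes A2 lay below A1, with medians of −0.90 for box C/D and −0.69 for box H/ACA.

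Of the strain markers, HRR25 and HIS3 were alike in all 4 libraries, while the lowest markers were not. HRR25 itself stood at 13657, 12415, 12525 and 14975 normalised counts in A1, A2, B1 and B2, with a log2 fold of 0.08 in the authors' deposited table. URA3, carried by the plasmid, was read at 34870, 31344, 22329 and 32168 normalised counts. LEU2, a gene the cells are labelled as lacking, had 4, 2, 16 and 15 reads, or 5.41, 2.25, 24.2 and 8.68 normalised counts, with B1 the highest. HIS3, also labelled as deleted, had 415, 385, 305 and 910 reads, so its locus still gave reads. The α-specific genes MF(ALPHA)1 and STE3 were high in each library and the a-specific MFA1, MFA2 and STE2 far lower, though with B1 the highest; the labels name no mating type.

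Among the called snoRNAs, snR61, snR50, snR66, snR67 and snR24 direct methylation of the 25S rRNA of the large subunit alone, with positions as annotated in RefSeq. snR61, the guide for A1133, stood at 1735 and 299 normalised counts in A and at 8166 and 18191 in B. The deposited log2 fold was 3.70 and the adjusted p 9.69e-05, both the authors' values. All 4 libraries differed here, with A2 the lowest and B2 the highest, and the groups did not overlap. snR50, the guide for G867, had 741 and 219 in A against 2136 and 2183 in B (deposited log2 fold 2.17, adjusted p 4.77e-07). Its B libraries were almost equal, and its A libraries were not. snR66, the guide for U2417, had 5892 and 1443 in A against 18222 and 14285 in B (deposited log2 fold 2.15, adjusted p 2.18e-10). snR67, the guide for G2619 and U2724, had 1935 and 771 in A against 5390 and 6429 in B, with a deposited log2 fold of 2.13 and the lowest deposited adjusted p of any feature, 1.06e-10. For both, each B library exceeded the higher A library. snR24, the guide for C1437, C1449 and C1450, lies in an intron of ASC1 and had 4088 and 1206 in A against 7086 and 7000 in B. It was the smallest of the called changes, with a deposited log2 fold of 1.41 and adjusted p of 0.0302, and the fold from A1 to either B library was smaller than that from A2 to A1.

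Guides of the small subunit were also among them. snR47 directs methylation in both subunits, at A2220 of the 25S and A619 of the 18S rRNA, and had 481 and 261 normalised counts in A against 1260 and 1045 in B (log2 fold 1.64, adjusted p 0.00965, deposited). snR74, the guide for A28 of the 18S rRNA, had 550 and 268 in A against 1655 and 1221 in B (log2 fold 1.81, adjusted p 0.00184, deposited). The same order of the libraries, with B1 highest and A2 lowest, held for both. snR79, the guide for C1007 of the 18S rRNA, had 320 and 169 in A against 1310 and 1067 in B (log2 fold 2.28, adjusted p 1.7e-06, deposited). snR45 guides no methylation: it directs the acetylation of cytosine 1773 of the 18S rRNA by Kre33. It had 2369 and 1158 normalised counts in A against 6864 and 5816 in B (log2 fold 1.85, adjusted p 2.22e-07, deposited). So the called genes were not all methylation guides, and in snR45 too both B libraries lay above both A libraries.

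**Figure D2:**
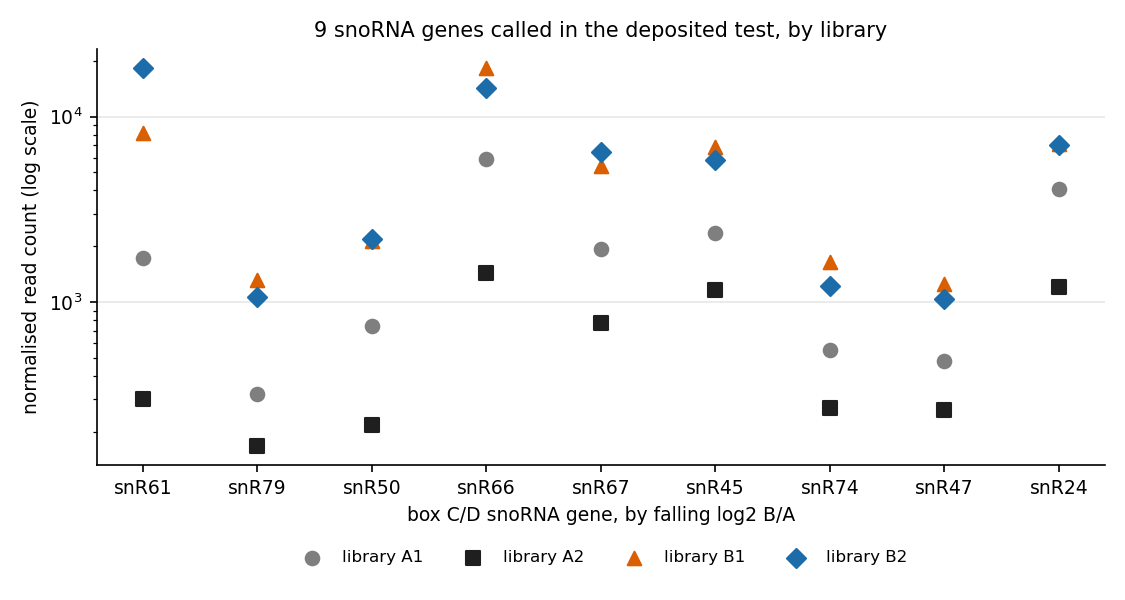
Normalised counts on a log axis of the 9 called snoRNAs in libraries A1, A2, B1 and B2. Both B points lie above both A points for every gene, and A2 lies below A1 in all of them.

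Over the 9 genes the lower B library was 1.71 to 4.71 times the higher A library. A1 was 1.84 to 5.80 times A2, while the B libraries differed by up to 2.23 times and B1 was the higher in 6. The 9 genes had between 150 and 31431 reads in a library, so counting error was small beside the spread between libraries. The calls belong to the deposited test. limma with a trend, fitted to the recovered reads of all 6760 features with the spread taken from the 2 libraries a side, gave these genes unadjusted p-values of 4.43e-04 to 0.0179 and an adjusted p of 0.993, and it called 0 features (0%), with 133 at an unadjusted p under 0.05. With 2 libraries against 2 an exact permutation test of a single gene cannot go below a two-sided p of 0.333.

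The library present in both CMK tables has a size factor of 1.73 in each, so normalised levels of the 9 genes can be set side by side with the other 3 libraries of the hrr25is table, though levels set across tables rest on the authors' joint scaling. For snR61 those libraries held 15766, 20657 and 9517 normalised counts, all far above the 1735 and 299 of condition A here. For snR66 they held 15387, 18204 and 16120, again above condition A and near the B libraries. For each of the 9 genes, the 3 libraries of that table other than the shared one, those of its condition A included, were above both A libraries of the unmodified strain. The 9 genes were chosen by the call that A lies below B, so this order is a description and supports nothing about which libraries stand apart. Within the hrr25is table the deposited log2 folds of the 9 genes were −0.39 to 0.38 with an adjusted p of 1; the comparisons share library B2. Strain, condition and library cannot be told apart in this contrast.

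Of the 36 box C/D genes that were not called, 20 (55.6%) had both B libraries above both A libraries and 2 had them below, with a median deposited log2 fold of 0.89. Of all 45 box C/D genes at or above the minimum, 29 (64.4%) had both B libraries above both A libraries and 2 had them below, against 11.8% and 13.3% over all features. With the called genes included, the median deposited log2 fold was 1.41, against −0.00 over all features. Of 29 box H/ACA genes, 13 (44.8%) were separated upward and 2 downward, with a median of 0.71 and 0 calls, while 7 were higher and 1 lower at a deposited p under 0.05. A2 was the lowest library at 38 of 45 box C/D and 21 of 29 box H/ACA genes, and B1 the highest at 31 and 21. With A1 and B2 alone the medians were 0.67 and 0.05, a comparison chosen after the spread between libraries had been seen. snR53 and snR73, both C/D guides, fell below the minimum, with at most 31.8 normalised counts in any library.

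Shorter snoRNAs had larger folds. The 27 of at most 100 bases, all box C/D, had a median log2 fold of 1.50 (quartiles 0.84 and 2.08). Of these, 20 (74.1%) were separated upward and 1 (3.70%) downward, against 11.8% and 13.3% over all features. They held 8 of the 9 calls, while 0.14% of all features were called. The 27 of over 100 and up to 200 bases had a median of 0.96 (0.38 and 1.78), with 15 (55.6%) upward, 1 (3.70%) downward and 1 call. The 20 longer ones had a median of 0.32 (0.022 and 1.31), with 7 (35%) upward, 2 (10%) downward and no call. In the middle range of length the classes were close, with a median of 0.96 for both the 15 C/D and the 12 H/ACA genes. Over the whole range length and class cannot be told apart, since no H/ACA gene is as short as the shortest group, and no test of the order was made.

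**Figure D3:**
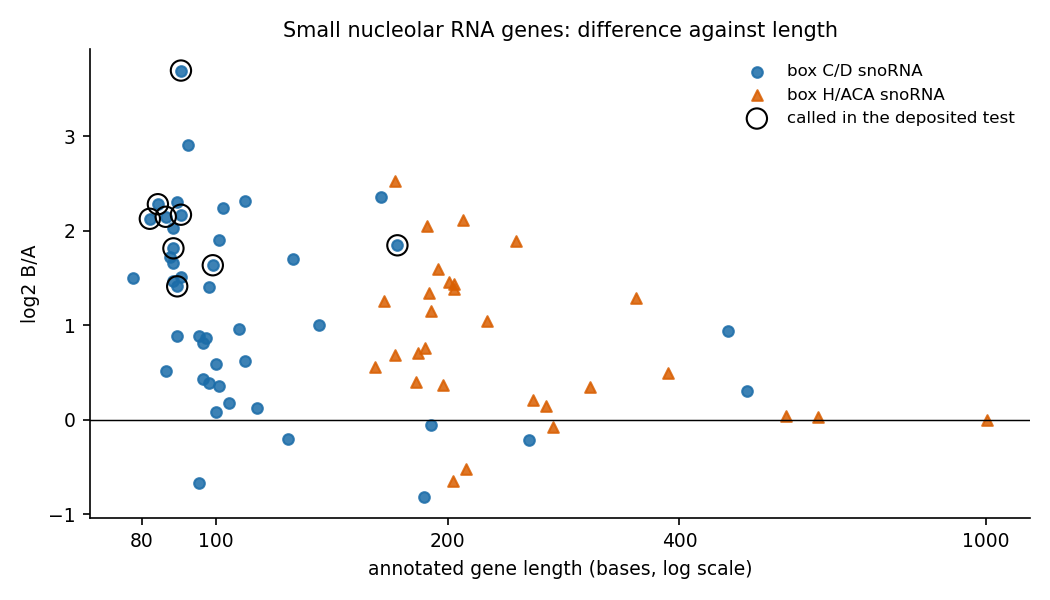
Deposited log2 fold (B over A) of each snoRNA against its length in bases on a log axis, by class and with the called genes marked. The called genes lie at lengths of 82 to 172, and the longest snoRNAs sit near 0.

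Individual C/D genes show how far the libraries set the size. snR52 had the second largest fold of the class at 215 and 100 normalised counts in A and 1717 and 640 in B, a deposited log2 fold of 2.90 with an adjusted p of 1 (0.0245 before adjustment). Its groups did not overlap, but its B libraries differed more than those of any called gene. snR87, which guides methylation of the 18S rRNA, had 147, 78.8, 839 and 282 in A1, A2, B1 and B2, with a deposited log2 fold of 2.31 and adjusted p of 1. The polycistronic row on chromosome XIII that yields snR72 to snR78 had a positive deposited log2 fold at each member above the minimum: 1.41 for snR72, 1.81 for snR74, 2.31 for snR75, 0.62 for snR76, 1.47 for snR77 and 1.72 for snR78. Of these, snR74 alone was called. Over all 15 snoRNAs in such rows the median was 1.66. Of these, 12 (80%) were separated upward and 0 downward, against 11.8% and 13.3% over all features. The 51 with a gene of their own had a median of 0.87, with 26 (51.0%) upward and 2 (3.92%) downward. The 8 in introns had one of 0.70, with 4 (50%) upward and 2 (25%) downward.

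Abundant C/D snoRNAs, among them those known for cleavage of the rRNA precursor, were uneven. snR17a, one of the genes for U3, which is needed for cleavage of the 18S precursor, had 90034, 60094, 98257 and 86814 normalised counts, a deposited log2 fold of 0.30. snR17b, the other U3 gene, had 28531, 16961, 40006 and 47510 and a deposited log2 fold of 0.94 with both B libraries above both A libraries; the copies are near-identical and may share reads. snR190 was among the most abundant features, at 598170, 455003, 55918 and 954030 in A1, A2, B1 and B2, for a deposited log2 fold of −0.06. Its share of a library's reads was 3.02%, 2.67%, 0.386% and 4.83% in that order, so B1 held the least and B2 the most. snR190 shares its transcript with snR128 (U14), needed for processing of the 18S precursor, which had 5250, 2155, 15523 and 8632 and a deposited log2 fold of 1.71 with an adjusted p of 1 (0.00287 before adjustment). Of this pair, B1 was the lowest library for snR190 and the highest for snR128.

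A few snoRNAs had lower values in B. snR4, a C/D snoRNA that guides acetylation of the 18S rRNA, had 19300, 13275, 7038 and 11511 normalised counts, a deposited log2 fold of −0.81 with an adjusted p of 1 (0.0468 before adjustment). snR34, a box H/ACA guide for the 25S rRNA, had 73562, 67041, 40192 and 49603, a deposited log2 fold of −0.65 with an adjusted p of 1 (0.0285 before adjustment). In both, the groups did not overlap and B1 was the lowest library. snR38, shown above, had 207, 195, 96.9 and 155, a deposited log2 fold of −0.67.

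Among box H/ACA genes none passed the adjusted threshold. snR85, a guide for the 18S rRNA, had 6593 and 1162 in A and 16304 and 28495 in B, a deposited log2 fold of 2.53 with an adjusted p of 0.995. snR35, which acts at the hypermodified uridine of the 18S rRNA, had 18220 and 7514 in A and 33137 and 36683 in B, a deposited log2 fold of 1.44 with an adjusted p of 0.225. For both, B exceeded A without overlap and A2 was far below A1, the pattern of the called C/D genes. The abundant long members were near 0: snR30, needed for processing of the 18S precursor, had 153665, 118435, 162717 and 115228 (deposited log2 fold 0.03), and snR86 had 165051, 130006, 128979 and 165463 (−0.00). Summed over all snoRNAs, reads made up 7.23% and 6.11% of the A libraries and 7.07% and 9.27% of the B libraries, since the abundant members carry the sum. Counting error alone, as a 95% Wilson interval, is within 0.03 percent of reads of each of these shares.

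Protein-coding genes beside the snoRNAs had medians near 0. The 21 protein-coding genes that start within 500 bases downstream of a snoRNA on the same strand had a median deposited log2 fold of −0.07. Of these, 2 (9.52%) were separated upward, 6 (28.6%) downward and 0 called, against 11.8% upward and 13.3% downward over all features. SMC5, a subunit of a DNA repair complex that lies downstream of snR50, had a deposited log2 fold of 0.38. The 8 host genes of intronic snoRNAs had a median of −0.11, with 1 (12.5%) upward, 2 (25%) downward and 0 called. ASC1, host of snR24 and a ribosomal protein of the small subunit, had a deposited log2 fold of 0.38 with an adjusted p of 1. EFB1, host of snR18 and a translation elongation factor, had a deposited log2 fold of −0.64, while snR18 was at 2.24. How reads in an intron were counted is not stated. No other gene passed the adjusted test at any of these loci.

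The spliceosomal RNAs, which build the intron-removing complex, were not called. LSR1, the U2 RNA, had 682403, 453565, 472279 and 858951 normalised counts in A1, A2, B1 and B2, and SNR19, the U1 RNA, had 89780, 60497, 91117 and 96381, with deposited log2 folds of 0.23 and 0.32. The shorter SNR6 (U6) had 2292, 1132, 7845 and 1583, and SNR14 (U4) had 1049, 646, 2677 and 887, with deposited log2 folds of 1.46 and 1.07. In both short RNAs B2 was within the A range and B1 alone was high, so these folds rest on 1 library. SCR1, the RNA of the signal recognition particle, had 734001, 510693, 508975 and 597800 (deposited log2 fold −0.17). RPR1, the RNA of RNase P, had 15512, 12804, 8063 and 13444 (−0.40), and TLC1, the telomerase RNA, 8040, 5680, 6907 and 9253 (0.24). The groups overlapped for each of these except SNR19, whose B libraries were just above A1.

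The tRNA genes gave the largest folds and the least even ones. Of 243 listed tRNA genes 179 reached the minimum. Their median deposited log2 fold was 1.51, with 80 (44.7%) separated upward and 13 (7.26%) downward, against 11.8% and 13.3% over all features. However, 0 were called and 4 were higher at a deposited p under 0.05. B1 was the highest library at 155 of them, and B2 lay below B1 at 164 and over 2-fold from it at 136. Some of these genes reached the minimum through B1 alone, so the minimum bears on these counts. Without it, B1 was the highest library at 213 of all 243 tRNA genes and the median was 1.42, and among the 64 genes below the minimum B1 was the highest at 58. Over all 243, 91 (37.4%) were separated upward and 16 downward, and over those 64, 11 (17.2%) upward and 3 downward. Against the mean of A, the median was 2.24 for B1 and 0.17 for B2. tRNA reads took 0.0889%, 0.0670%, 0.799% and 0.100% of A1, A2, B1 and B2, so the folds describe a small part of the reads in each library.

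By anticodon family, summed over the genes at or above the minimum only, B1 had the highest sum in 38 of 41 families. B2 lay within the A range in 9 and above both A libraries in 22. Copies below the minimum were left out, as in tQ(UUG), where 2 of 5 genes were kept. Some kept genes passed through B1 alone, so the minimum bears on these counts too, and no sums were made without it. tQ(CUG)M, the only glutamine tRNA gene with that anticodon, had 2073, 587, 32950 and 2438 normalised counts, a deposited log2 fold of 3.73 with an adjusted p of 1. tT(CGU)K, a threonine tRNA gene, had 353, 90.0, 8128 and 590, a deposited log2 fold of 4.30. For both, B2 stood above A1 and B1 was more than 10-fold above B2. Other families lacked such a rise in B1. The lysine family tK(UUU) summed to 711, 775, 506 and 597, with both B sums below both A sums, and the glycine family tG(GCC) to 439, 458, 468 and 357. tRNA copies of a family are near-identical, so reads may be shared among them or set aside. The sums are safer than single genes in that respect only.

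**Figure D4:**
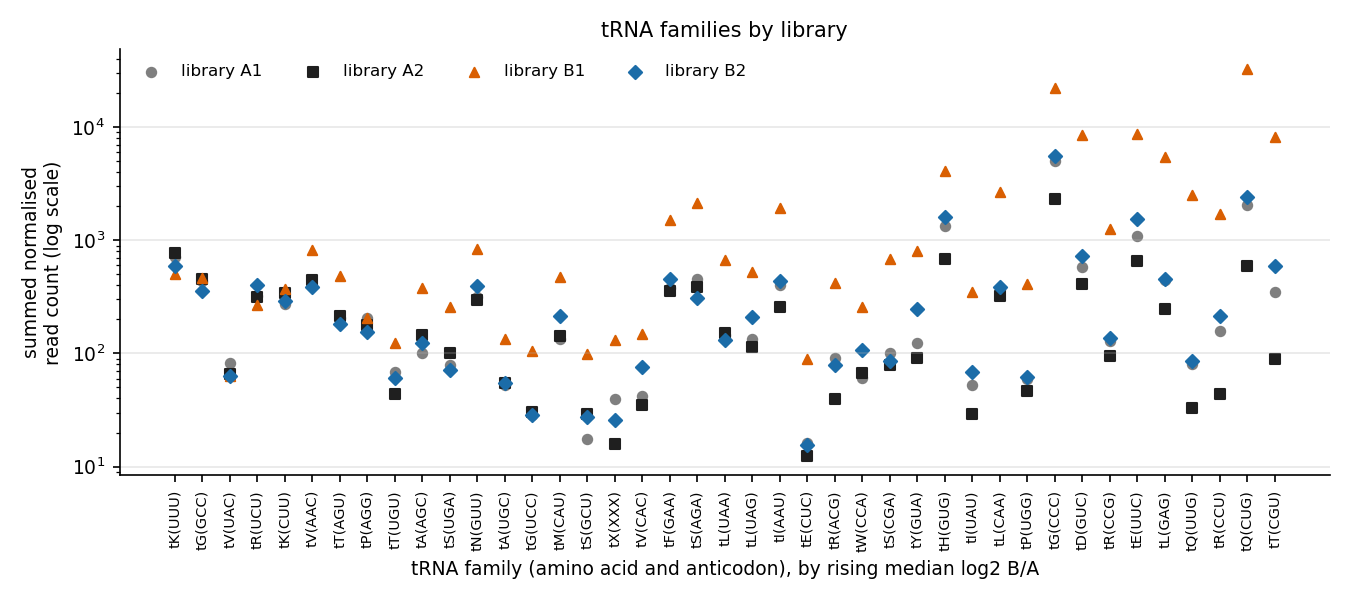
Summed normalised counts on a log axis of each tRNA family (amino acid and anticodon), ordered by rising median log2 fold, with a point for each of the 4 libraries. Sums hold only the genes at or above the minimum mean, some of which passed through B1 alone. B1 is the highest point in 38 of 41 families, and B2 lies within the A range in 9.

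Ribosomal protein genes leaned lower. Of 138, 68 (49.3%) had both B libraries below both A libraries and 6 had them above, against 13.3% and 11.8% over all features, with a median deposited log2 fold of −0.38 and 0 called. At a deposited p under 0.05, 6 were lower and 3 higher. B1 was the lowest library at 118 of them, and the median against the mean of A was −0.74 for B1 and −0.09 for B2. RPL25, a large subunit protein near the exit tunnel, had 26109, 29590, 10508 and 19191 normalised counts, a deposited log2 fold of −0.91 with an adjusted p of 1 (0.00427 before adjustment). RPS25B, a small subunit protein, had 8869, 9332, 3885 and 5940, a deposited log2 fold of −0.89 with an adjusted p of 1 (0.00521 before adjustment). In both, B2 lay between B1 and the A libraries. RPL41B, one of a near-identical pair that encodes the shortest ribosomal protein, went the other way at 16461, 13860, 30307 and 32297, a deposited log2 fold of 1.05 with an adjusted p of 0.273. Its partner RPL41A had 9285, 6322, 25212 and 12818 and a deposited log2 fold of 1.28 with an adjusted p of 1; the pair may share reads.

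Among the other 5594 protein-coding genes 0 were called, 6 were higher and 4 lower at a deposited p under 0.05, and the median log2 fold was −0.03. Separation was near or below the background, with 433 upward (7.74%) and 766 downward (13.7%). The lower values with the smallest p included ARF1, a GTPase of vesicle budding, at 10472, 12086, 4612 and 8645 normalised counts, with a deposited log2 fold of −0.77 and an adjusted p of 1 (0.0386 before adjustment). RPC11, a subunit of RNA polymerase III, had 1236, 1617, 710 and 904, a deposited log2 fold of −0.82 with an adjusted p of 1 (0.0449 before adjustment). For both genes all B values were below all A values and B1 was the lowest.

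None of the 36 lists of protein-coding genes held a called gene, and 32 of the medians were within 0.25 of 0 on the log2 scale. Over all features, 11.8% were separated upward and 13.3% downward. Genes of ribosome biogenesis, 75 in all, were at −0.13, with 3 (4%) separated upward and 17 (22.7%) downward. The 15 factors of late 40S maturation, the step at which Hrr25 is known to act, had a median of −0.06, with 2 (13.3%) upward and 3 (20%) downward. Termination and 3′ end processing factors of RNA polymerase II, on which snoRNA ends depend, had one of 0.00 over 25 genes. Proteasome genes were at −0.19 over 33, and 50 general stress genes at 0.08, with 11 (22%) of the stress genes upward and 2 (4%) downward. The 4 casein kinase 1 genes were at −0.00. Glucose-repressed carbon genes had the highest median, 0.68 over 32 genes, with a median against the mean of A of 1.20 in B1 and −0.25 in B2, so the B libraries pointed in opposite directions.

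Among genes of meiosis too, B1 was mostly the highest library. Genes were grouped by the words meiosis-specific or sporulation-specific in their annotation note, a rule made after such values had been seen. The 46 genes so found had medians of 34.8, 94.1, 260 and 42.3 normalised counts per kilobase in A1, A2, B1 and B2. B1 was the highest library at 41 of them and A2 the next at 39. MEI5, a meiotic recombination factor, stood at 2.70, 96.8, 471 and 5.21 normalised counts. The words also matched genes active in growing cells, so the group is not made up of meiosis genes alone. BDF1, a chromatin factor, stood at 1814, 2023, 1971 and 1912 normalised counts per kilobase. RSC2, a chromatin remodeller subunit, was at 624, 652, 641 and 614. In both, the libraries were close to each other. Over the 46 genes the median deposited log2 fold was 1.20, with 0 called. The 7 a-specific genes showed the same order, with medians of 73.0, 135, 367 and 88.6 per kilobase. Medians of the 3 α-specific genes, which are active, were 9173, 10701, 10540 and 8873, the values of MF(ALPHA)2. The other α-specific genes were less even, with B1 the lowest. MF(ALPHA)1 stood at 20235, 14927, 13010 and 31755 per kilobase, and STE3 at 6110, 6404, 4023 and 5636. LEU2, LYS2 and MET17 were at 3.04, 1.69, 13.6 and 2.77, which are few reads.

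Ranked by level in B2, the 82 protein-coding genes under 10 normalised counts per kilobase had medians of 4.20, 15.3, 59.8 and 5.44 in A1, A2, B1 and B2, and the 2288 genes over 1000 had 2118, 1980, 1618 and 2064. B2 sets these groups, so the ratio of B1 to B2 in the lowest one is raised in part by construction. With the groups set by A1 instead, a choice made after these values had been seen, the 113 genes under 10 had medians of 74.9 in B1 and 7.79 in B2, and the 2321 genes over 1000 had 1598 and 2033. Across the 5594 genes, log2 A2 over A1 and log2 B1 over B2 had a Pearson r of 0.81; the ratios share no library, genes are not independent replicates, and the value is a description. In bulk RNA, a small share of cells that express such genes and a low level in all cells cannot be told apart. The part of either in the snoRNA folds was not tested. Within condition A the order differed: A2 lay above A1 at 41 of the 46 genes matched by words for meiosis or sporulation. Among snoRNAs, A2 was the lowest library at 38 of 45 box C/D and 21 of 29 box H/ACA genes.

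**Figure D5:**
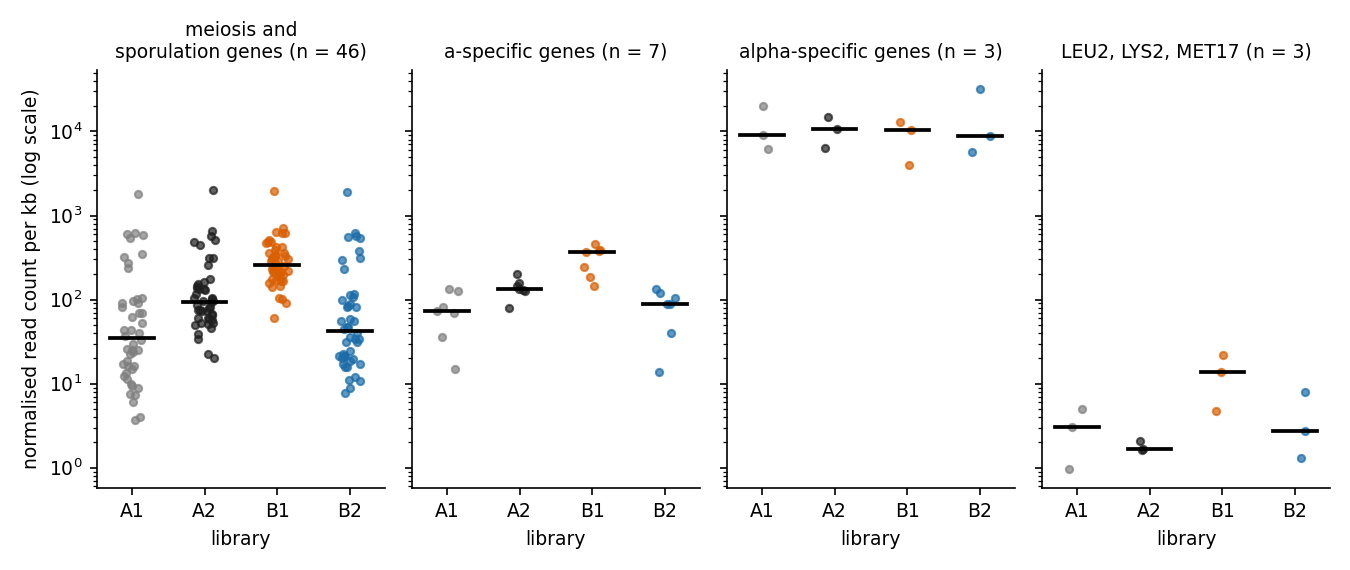
Normalised counts per kilobase on a log axis in libraries A1, A2, B1 and B2, with a point for each gene and a bar at the median. The groups are 46 genes matched by words for meiosis or sporulation in their note, 7 a-specific genes, 3 α-specific genes, and LEU2, LYS2 and MET17. In the meiosis and a-specific groups the median of B1 lies highest and that of A2 next. The α-specific medians are alike, but single α-specific genes differ between libraries, and B1 is the highest at 0 of them.

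Of 552 systematic ORF names that RefSeq does not hold, 437 reached the minimum, with a median deposited log2 fold of 1.20. Of these, 193 (44.2%) were separated upward and 5 (1.14%) downward, against 11.8% and 13.3% over all features. 0 were called, and 14 were higher at a deposited p under 0.05, against 56 (0.868%) over all 6451 features. Names may have reached the minimum through B1, so the minimum may bear on these counts. With no minimum mean the median was 1.25. Many such names lie over or opposite a known gene, and the strand setting of the counting is not given, so their reads cannot be assigned. Medians against the mean of A were 1.52 for B1 and 0.35 for B2, and A1 was the lowest library at 296. B1 was the highest library at 318, and the B libraries were over 2-fold apart at 240 (54.9%). The class median thus rested more on B1 than on B2. Still, B2 lay above A1 at 370 of the 437, with a median log2 ratio of B2 to A1 of 1.01. YFL032W had 262, 73.1, 804 and 1442 normalised counts, a deposited log2 fold of 2.74 with an adjusted p of 1 (0.00398 before adjustment). YJL188C had 135, 102, 403 and 391, a deposited log2 fold of 1.74 with an adjusted p of 1 (0.0139 before adjustment). For both, B was above A without overlap. In neither was B1 far above B2, unlike in the class, where the median log2 ratio of B2 to B1 was −0.94.

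The other experiment on cells labelled WT used 3MBPP1, another kinase inhibitor, and, by its labels, other samples. Over the features at or above the minimum in both tables, box C/D genes had a median deposited log2 fold of 1.41 with CMK and −0.61 with 3MBPP1, and ribosomal protein genes −0.38 and −1.36. The 9 called snoRNAs had deposited log2 folds of −1.15 to −0.17 with 3MBPP1, where snR74 was called lower with an adjusted p of 0.0200. limma's test of the difference between the experiments, on recovered reads of 6262 features, gave those 9 genes adjusted p-values of 0.177 to 0.366, so a difference was not shown for any of them. It passed the threshold at 2 features (0.0319%), RPL9A and YJL188C, with 593 at an unadjusted p under 0.05. RPL9A, one of a near-identical pair of large subunit protein genes, had 11059, 12273, 9851 and 11782 normalised counts with CMK and 9293, 7231, 1133 and 1122 with 3MBPP1. For RPL9A the 4 libraries of the CMK table were level, while both B libraries of the 3MBPP1 table were low. The 3MBPP1 cells differ in strain markers as well, the doses are not stated, and condition A is assumed to be the same treatment in both tables, so compound, strain and table cannot be told apart.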

How the data were processed

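Per the submitters' processing notes, the tools were HTSeq 0.6.0, STAR 2.3.0 and CASAVA 1.8.2, with sacCer3 (the R64 assembly) as the build. The strand setting of the counting and the version of the authors' comparison tool are not given in the sources used here. For each feature the authors averaged normalised counts, a signal, into a mean over the table and one per condition, per the file headers. Fold changes were deposited as a ratio of condition means, and log2 values as its logarithm. Each deposited p-value, raw or adjusted over the whole table, comes from the authors' own comparison, whose column names are those of the DESeq package.

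From these means whole read counts and size factors of the 4 libraries were solved for 100% of features; simulated data were recovered in full. limma 3.58.1 in R 4.3.3 was fitted with a trend to log2(normalised count + 1). Data were also simulated with the same fixed spread for every feature and no shift between the libraries of a condition. On these, limma called 22.9% of planted log2 changes of 1 and 97.8% of those of 2, with 4 false calls. The unequal libraries seen here were not part of that simulation, so these shares do not give the power in these data. The labels do not say that replicates were separate cultures, so p-values measure the spread between these samples. Python 3.11.15, pandas 2.3.3, numpy 2.4.6 and matplotlib 3.10.9 were used for summaries. Of 6760 identifiers, 5965 matched RefSeq.

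The members, lists and rules were chosen with earlier results of these data known. Features named are every called one, the 10 in each direction with the smallest deposited p among separated features, in each noncoding class the 5 with the highest mean and the 5 with the largest ratio between B libraries, the 4 list members with the largest change, and the strain markers. Other snoRNAs, tRNA families, host genes, meiosis genes and ORF names were chosen after their values were seen. Alternatives were limma fits, scalings, minimum means, a pseudocount of 5 and leaving out each library.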

Additional observations from a re-analysis of the deposited data

Results flagged for a closer look

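Effects of CMK and 3MBPP1 in cells labelled WT differed at 2 of 6262 features by limma's test of the difference, both with a higher value under CMK. For RPL9A the CMK log2 fold exceeded the 3MBPP1 one by 2.75 (SE 0.285, adjusted p = 0.0462, limma). Its deposited log2 folds were −0.11 and −2.87, the latter with a deposited adjusted p of 4.41e-14. For YJL188C, an ORF name that RefSeq does not hold, the difference was 3.28 (SE 0.358, adjusted p = 0.0462, limma). Its deposited log2 folds were 1.74 with CMK, from 135, 102, 403 and 391 normalised counts, and −1.55 with 3MBPP1, from 186, 169, 57.4 and 64.1. The groups did not overlap for YJL188C in either experiment, and for RPL9A they overlapped with CMK only. The parts of strain, dose and table in these differences were not tested.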

How the results depend on the processing

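The 9 calls belong to the authors' deposited test. limma on the recovered reads called 0 features, with voom 0, with total reads as the scale 0, with protein-coding size factors 0 and with a pseudocount of 5 0, at 133, 93, 110, 131 and 132 features with an unadjusted p under 0.05. Leaving out each library in turn, with the lone sample assumed to vary like the others, it called 9 to 785: 29 without A1, 9 without A2, 57 without B1 and 785 without B2, and the deposited calls among these were 9, 1, 9 and 9. The test against 3MBPP1 called 2 features, but 0 with voom (585 at an unadjusted p under 0.05), 1 with total reads and 0 with no minimum mean (661), and 0 to 601 with a library left out. Its count was 44 without B1 and 601 without B2.

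With each library left out the median log2 fold ran from 0.71 to 1.41 over snoRNAs, 0.79 to 1.77 over box C/D, 0.26 to 1.17 over box H/ACA, 0.17 to 2.24 over tRNA genes, 0.35 to 1.72 over ORF names outside RefSeq, −0.74 to −0.095 over ribosomal protein genes and −0.038 to 0.057 over all features. Without B1 the tRNA median was 0.17. With no minimum mean the box C/D, H/ACA, tRNA and ORF name medians were 1.25, 0.71, 1.42 and 1.25, also added after the data were seen. A1 and B2 alone, added after the data were seen, gave 0.38 over snoRNAs, 0.67 over box C/D, 0.054 over box H/ACA and 0.12 over tRNA genes. The same pair gave 1.01 over ORF names outside RefSeq and −0.12 over ribosomal protein genes. The median over all features was −0.041 at a minimum mean of 100, 0.13 with total reads and 0.055 with protein-coding size factors, so shifts of that size belong to the scale.

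The 9 called snoRNAs stayed higher in B in each of these, with log2 folds from 0.78 to 5.46. Leaving out libraries could not change this direction, since both B libraries of each gene lie above both A libraries. Of the 205 named features, 63 changed sign without B1, 9 without A1, 6 without A2 and 7 without B2. The cause was not tested. No paired analysis was possible because the treated and control groups carry different replicate numbers and the recovered libraries carry none. Depth limits only features with few reads; the spread between libraries limits the rest.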
